A study of Mus musculus with 49 samples.

Results

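Mouse embryonic stem (ES) cells in which Trim24 had been degraded for 12 h of p53 activation were compared with cells of the same line, activated for 12 h, that still expressed Trim24. The comparison holds 6 RNA-seq libraries, 3 for each condition, of the 49 libraries in the series, and they were chosen by their names in the time course alone. All genes of the table entered it, and 16774 of 20489 had enough reads to be tested. Both groups carry degron-tagged Trim24, a fusion to a domain that lets the compound dTAG13 send the protein to the proteasome, in ES cells of strain 129S6/SvEvTac grown with serum and leukemia inhibitory factor. Both groups received 1 µM doxorubicin, a DNA-damaging drug used here to activate p53, for 12 h. The Trim24-degraded cells also received 500 nM dTAG13 for those 12 h, and the Trim24-expressing cells received none. The same line at 0 h, with neither compound (3 libraries), and pairs of groups at 2, 4 and 8 h (3 libraries each) completed the time course. Because degrader and doxorubicin were given for the same hours, the length of Trim24 loss and that of p53 activation cannot be told apart, and no library of the time course shows dTAG13 in cells without the degron. The line was derived by picking edited clones, so the libraries are replicates of 1 line.

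p53, encoded by Trp53, is a transcription factor that is kept low by the ubiquitin ligase Mdm2 and accumulates after DNA damage. It then switches on genes for cell cycle arrest, DNA repair and cell death, together with its own inhibitors. Trim24 belongs to the TIF1 family of TRIM proteins, which combine a RING domain with a PHD finger and bromodomain that read histone tails, and it is a known partner of p53 on chromatin. ES cells leave the pluripotent state when p53 stays active, and repression of pluripotency genes is a known arm of their damage response.

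Reads over genes numbered 16773201 to 18234899 in the Trim24-degraded libraries and 16157342 to 18209530 in the Trim24-expressing ones. Levels are given as CPM, a gene's reads relative to the library size that the authors' scaling gave, without the prior count that their log2 values contain. Trim24 mRNA was 77.5, 80.6 and 74.03 CPM in Trim24-degraded and 71.3, 70.5 and 67.5 CPM in Trim24-expressing libraries at 12 h. The degrader removes the protein and not the mRNA, so this level does not check the labels. Of 10 ES cell markers 0 passed the thresholds in either direction, where 4.11% of all genes tested did. So short a list can show little at that share. The summed level of the markers was 1090 to 1200 CPM in Trim24-degraded and 1070 to 1170 CPM in Trim24-expressing libraries. All 10 were detected. Markers of fibroblasts or feeders summed to 191 to 218 CPM with Trim24 degraded and 188 to 218 CPM with Trim24 expressed. Those of blood cells summed to 35.6 to 41.8 CPM against 44.4 to 48.6 CPM, with Hbb-bs at 0 reads in all 6 libraries. Endothelial markers summed to 308 to 320 CPM against 304 to 321 CPM. In a mixture of cells, a change in the number of cells of a type and a change in RNA per cell cannot be told apart.

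Trim24 loss at 12 h changed 690 genes, 4.11% of those tested, counting genes with an adjusted p below 0.01 whose log2 fold change reached 0.75 up or down (limma, two-sided, n = 3 each). Of these, 453 were higher (2.7% of genes tested) and 237 lower (1.41%). For 688 of the 690 the libraries of the groups did not overlap, against 44% of all genes tested. With each library left out in turn, 447 of the 690 genes (64.8%) kept the call every time. The median log2 fold change over all genes was −0.02. When libraries were scaled to their total reads instead, 553 genes were higher and 175 lower, so that 76% of the changed genes were higher, against 65.7% with the deposited scaling. The deposited CPM summed to 810066 to 842064 in the Trim24-degraded libraries and 852193 to 878025 in the Trim24-expressing ones, and the part of this in the counts was not tested beyond that alternative. The changed genes were of low abundance before treatment, with a median at 0 h of 1.57 CPM for those higher and 0.694 CPM for those lower, while all genes tested had a median of 14.4 CPM. The genes that were higher had a median of 5.45 CPM with Trim24 degraded and 2.36 CPM with Trim24 expressed, and those that were lower had 3.84 CPM and 7.92 CPM.

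**Figure D1:**
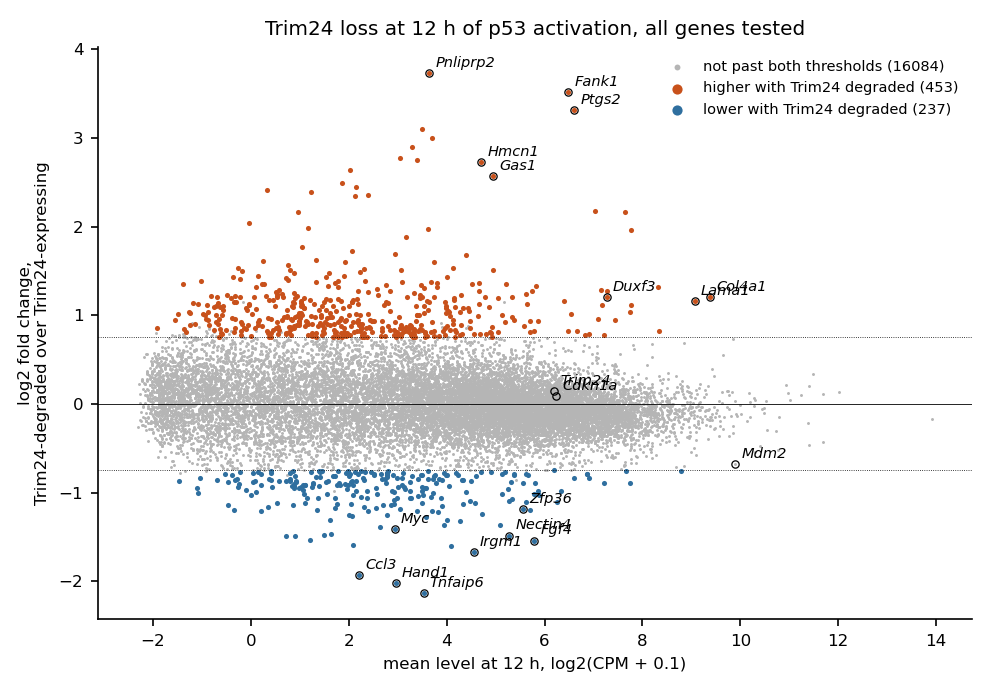
Log2 fold change of every gene tested (y axis, Trim24-degraded over Trim24-expressing at 12 h) against its mean level over both groups (x axis, log2 of CPM + 0.1). Orange points are the 453 genes that were higher and blue points the 237 that were lower, and dotted lines mark a log2 fold change of 0.75. The largest increases reach further from 0 than the largest decreases, and Cdkn1a and Trim24 lie close to 0.

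Among the largest increases were genes of lipid mediators and of signals at the cell surface. Ptgs2 (chr1:150100031-150108227 in GRCm38, plus strand) encodes cyclooxygenase 2, also called Cox2, which makes the precursor of the prostaglandins. It was at 175, 170.4 and 187 CPM in the Trim24-degraded libraries and at 17.8, 15.9 and 18.7 CPM in the Trim24-expressing ones (log2 fold change 3.32 ± 0.074 SE, limma adjusted p = 2.74e-20). Every Trim24-degraded library lay far above every Trim24-expressing one, and the 0 h libraries held 2.59, 2.7 and 2.04 CPM. Pnliprp2 (chr19:58759719-58777534), a lipase related to those of the pancreas, showed the largest fitted increase. It was at 22.6, 24.2 and 23.3 CPM with Trim24 degraded and 1.11, 1.52 and 1.7 CPM with Trim24 expressed (log2 fold change 3.73 ± 0.13 SE, limma adjusted p = 2.34e-16). Adra2a (chr19:54044151-54048982), the alpha-2A adrenergic receptor, was at 17.7, 20.3 and 14.5 CPM against 1.64, 2.21 and 2.23 CPM (log2 fold change 2.90 ± 0.14 SE, limma adjusted p = 2.05e-13). Its replicates were spread more widely than those of Pnliprp2, but the groups stood well apart. Gjb2 (chr14:57098600-57104702), the gap junction protein connexin 26, was at 14.4, 14.6 and 14.1 CPM with Trim24 degraded and 1.3, 1.79 and 2.49 CPM with Trim24 expressed (log2 fold change 2.77 ± 0.16 SE, limma adjusted p = 1.68e-11).

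Transcription factors and matrix genes were also among the 15 largest increases. Msc (chr1:14753346-14755992), the bHLH repressor musculin, was at 21.6, 23.2 and 16.3 CPM in Trim24-degraded and 1.98, 2.47 and 1.7 CPM in Trim24-expressing libraries (log2 fold change 3.10 ± 0.14 SE, limma adjusted p = 3.03e-13). The 0 h libraries held 10.2, 9.91 and 9.58 CPM of Msc, so the level at 12 h was above that at 0 h with Trim24 degraded and below it with Trim24 expressed. Foxc2 (chr8:121116171-121118895), a forkhead factor of mesoderm and lymphatic vessels, was at 17.6, 22.2 and 15.1 CPM against 2.51, 1.89 and 2.86 CPM (log2 fold change 2.75 ± 0.15 SE, limma adjusted p = 1.53e-11). Hmcn1 (chr1:150562524-150993435), the extracellular matrix protein hemicentin, was at 45.5, 45.7 and 45.1 CPM with Trim24 degraded and 5.79, 7.52 and 6.47 CPM with Trim24 expressed (log2 fold change 2.73 ± 0.10 SE, limma adjusted p = 2.34e-16). Its Trim24-degraded libraries were nearly equal. Fank1 (chr7:133776861-133881532), best known from testis, was at 149.9, 172 and 171 CPM against 14.9, 14.99 and 12.3 CPM (log2 fold change 3.51 ± 0.083 SE, limma adjusted p = 1.20e-19). The remaining genes of the 15 were Rgcc and Gas1, described with the cell cycle genes, the secreted lectin Reg1, the cilium gene Cfap206, the acid-sensing ion channel Asic2, the olfactory receptor Olfr1188 and the antiproliferative, interferon-inducible Samd9l, with log2 fold changes between 2.39 and 3.003. Samd9l was at 4.11, 3.09 and 4.92 CPM with Trim24 degraded and 0.579, 0.368 and 0.477 CPM with Trim24 expressed, both below the 15.6 ± 0.803 CPM of the 0 h libraries (SD, n = 3). In 259 of the 453 higher genes (57.2%) the highest Trim24-degraded library was replicate 2, which was also the highest in 47% of all genes tested.

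**Figure D2:**
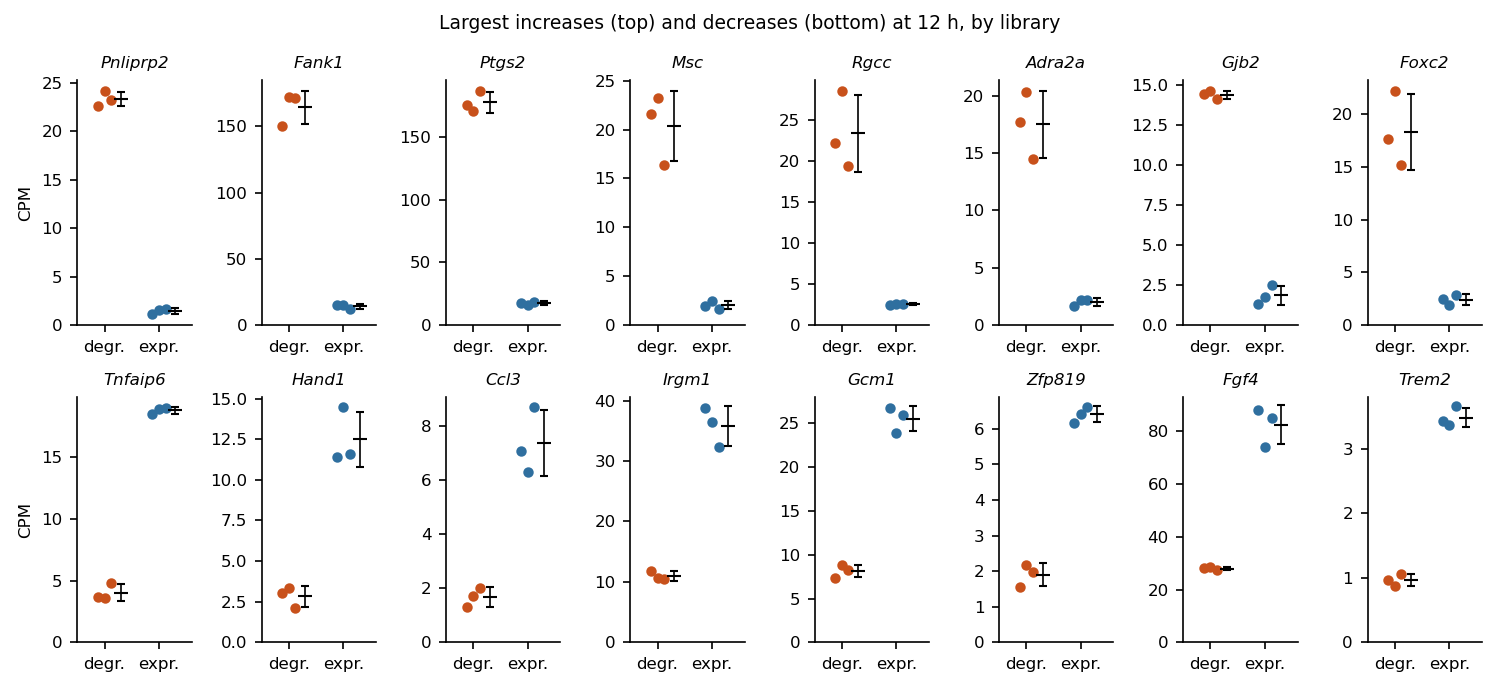
CPM of the 8 largest increases (top row) and 8 largest decreases (bottom row) at 12 h in the 3 Trim24-degraded (orange, left) and 3 Trim24-expressing (blue, right) libraries, with the mean and SD in black and every axis starting at 0. In none of the 16 genes do the groups overlap; Ptgs2 lies between 170.4 and 187 CPM with Trim24 degraded and between 15.9 and 18.7 CPM with Trim24 expressed.

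Inflammatory and prostanoid genes moved in both directions. Counts of list members here and below stand beside 2.7% higher and 1.41% lower among all genes tested. Of 24 inflammation and NF-kB genes tested, 4 were higher (Ptgs2, Birc3, Nfkbiz and Tnfaip3) and 1 lower (Cxcl10), with a median log2 fold change of 0.05, which was −0.03 without Trim24-degraded replicate 2. Birc3, an inhibitor of apoptosis induced by NF-kB, was at 4.54, 5.08 and 5.06 CPM in Trim24-degraded libraries and 1.59, 1.68 and 1.96 CPM in Trim24-expressing ones (log2 fold change 1.32 ± 0.15 SE, limma adjusted p = 3.63e-07). Nfkbiz, a nuclear inhibitor of NF-kB that also activates some of its targets, was at 14.96 ± 1.39 CPM against 8.39 ± 0.429 CPM (SD, n = 3 each, log2 fold change 0.81). Tnfaip3, the ubiquitin-editing enzyme A20 that ends NF-kB signalling, was at 6.23, 6.6 and 6.55 CPM with Trim24 degraded and 3.91, 4.1 and 3.13 CPM with Trim24 expressed. Its log2 fold change of 0.75 sat at the threshold, and the call was lost under 6 of the alternative settings. The chemokine Cxcl10 was at 6.18, 5.08 and 5.16 CPM against 12.1, 8.26 and 9.96 CPM (log2 fold change −0.83 ± 0.13 SE, limma adjusted p = 3.74e-05). That call was lost without Trim24-expressing replicate 1 (log2 fold change −0.70) and without trend and robust fitting. Of 16 prostanoid genes, 4 were higher and 1 lower. Besides Ptgs2, the prostaglandin transporter Slco2a1 had a log2 fold change of 0.92 and Hpgd, which degrades prostaglandins, one of 0.87. The remaining one was Ptger4, a receptor for prostaglandin E. Ptges, the synthase that turns the product of Ptgs2 into prostaglandin E, was lower, at 24.9, 22.95 and 21.5 CPM with Trim24 degraded and 48.8, 45.1 and 47.6 CPM with Trim24 expressed (log2 fold change −1.02 ± 0.079 SE, limma adjusted p = 8.48e-10). Without Trim24-degraded replicate 2 the inflammation list had 2 higher genes, and without Trim24-degraded replicate 3 the prostanoid list had 2.

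Of 17 complement genes 3 were higher and 0 lower. C1rb, a serine protease of the first complement component, was at 74.2, 78.4 and 73.8 CPM with Trim24 degraded against 33.8, 27.97 and 31.5 CPM with Trim24 expressed (log2 fold change 1.27), and its close copy C1ra was at 26.2 ± 1.93 CPM against 12.6 ± 1.43 CPM (SD, n = 3 each). Reads that fit both copies were placed at random, so the 2 values are not independent. Serping1, the inhibitor of that protease, had a log2 fold change of 0.90. Of 20 interferon-stimulated genes 0 were higher and 1 lower. This was Usp18, which removes the ubiquitin-like protein Isg15, at 4.78, 6.05 and 6.27 CPM with Trim24 degraded and 11.3, 10.5 and 11.2 CPM with Trim24 expressed (log2 fold change −0.92 ± 0.12 SE, limma adjusted p = 2.84e-06). Of 17 genes of antigen presentation 0 passed in either direction, and the class I gene H2-K1, with a log2 fold change that rounds to 0.75, fell just short of the fold required.

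Basement membrane and other genes of primitive endoderm, the yolk sac lineage that surrounds the early epiblast, had the highest median of the 46 lists. Members and lists were chosen with earlier results of these data known, so the rank is not independent of those results. Of 19 primitive endoderm genes tested, 9 were higher and 0 lower, with a median log2 fold change of 0.73, against −0.02 for all genes. None of the 19 had been called at 2, 4 or 8 h. Over all genes tested, 0.325% were higher at 2 h, 1% higher and 0.149% lower at 4 h, and 1.14% higher and 0.448% lower at 8 h. At such shares a list of 19 genes without a call says little about those times. Col4a1 (chr8:11198423-11312826), a chain of type IV collagen, was at 968, 1045 and 799 CPM in the Trim24-degraded libraries and 394, 399.8 and 419 CPM in the Trim24-expressing ones (log2 fold change 1.21 ± 0.079 SE, limma adjusted p = 1.38e-09). Its neighbour Col4a2, which encodes the partner chain, was at 295, 334 and 237 CPM against 123, 152 and 143 CPM (log2 fold change 1.04). Lama1, the laminin chain of embryonic basement membranes, was at 772, 783 and 678 CPM with Trim24 degraded and 311, 356 and 329 CPM with Trim24 expressed (log2 fold change 1.16 ± 0.068 SE, limma adjusted p = 5.42e-12). The 0 h libraries held 345, 373 and 330.5 CPM of Col4a1, close to the Trim24-expressing level at 12 h. Cubn and Amn, which together form an endocytic receptor, Dab2, its adaptor, and Srgn, a granule proteoglycan, were also higher. Of the lineage's transcription factors, Sox17 was at 4.54, 7.25 and 5.54 CPM against 1.78, 2.58 and 2.81 CPM (log2 fold change 1.16) and Gata4 was higher by 0.80 on the log2 scale. Gata6, Sox7, Foxa2 and Hnf4a did not pass, with log2 fold changes of −0.08, 0.22, 0.18 and −0.37. The number of higher members was 6 to 11 under the alternative settings with the same kind of threshold. Summed over the list, the level was 4700 to 5490 CPM with Trim24 degraded and 2790 to 2930 CPM with Trim24 expressed. Type IV collagen and laminins are made by many cell types, so the list does not identify one.

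**Figure D3:**
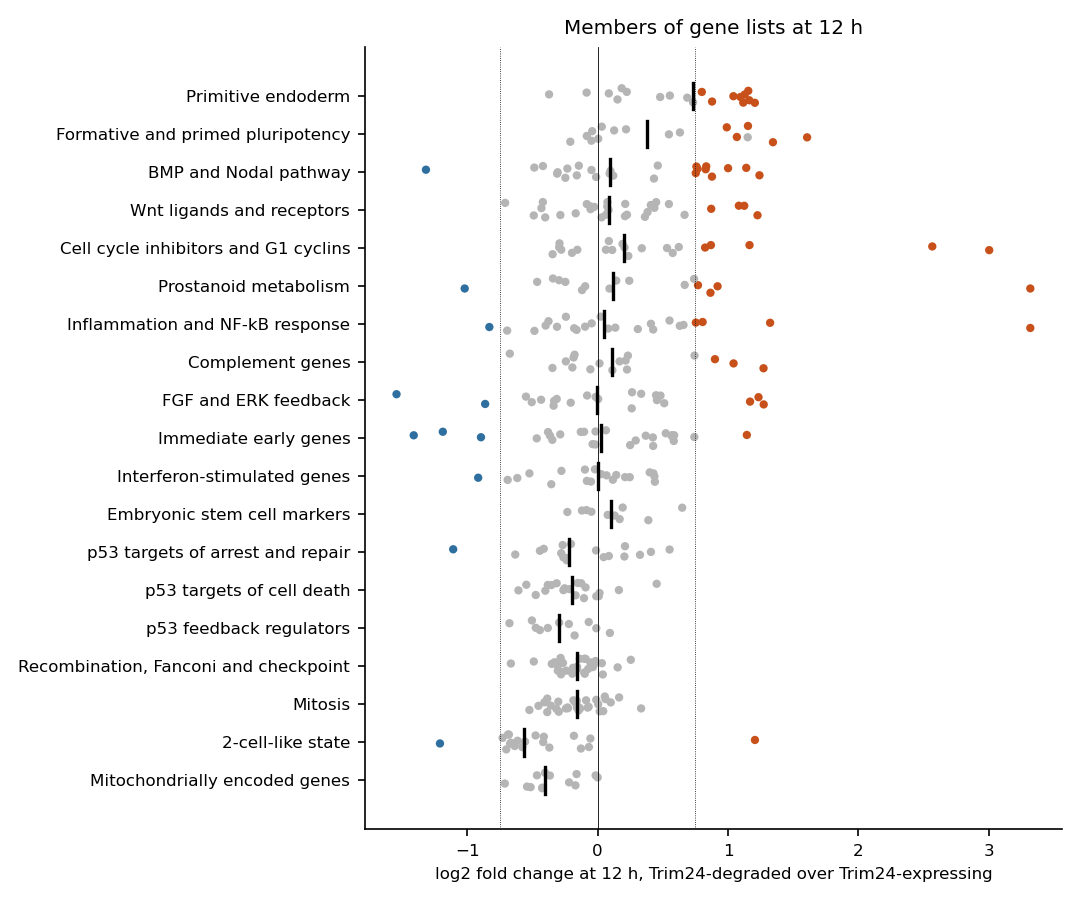
Log2 fold change at 12 h (x axis, Trim24-degraded over Trim24-expressing) of each tested member of 19 gene lists (rows), with the list median as a black bar. Orange members were higher and blue ones lower at both thresholds, grey ones did not pass, and dotted lines mark 0.75. Primitive endoderm has the highest median (0.73) and the 2-cell-like list the lowest (−0.57) of the lists drawn.

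Among signalling genes of the TGF-beta family, 9 of 25 BMP and Nodal pathway members were higher and 1 lower. Over all genes tested, 2.7% were higher and 1.41% lower. The ligands Bmp4 and Bmp2 were higher, by 1.00 and 0.88 on the log2 scale, as was the activin subunit Inhbb, by 0.83. So were the extracellular antagonists Nog (by 1.14) and Fst (by 0.77), the pseudoreceptor Bambi (by 0.76) and the inhibitory Smad6 (by 0.75). Lefty1, a Nodal antagonist, was at 66.5, 74.3 and 67.7 CPM in Trim24-degraded and 29.8, 28.5 and 29.1 CPM in Trim24-expressing libraries (log2 fold change 1.24 ± 0.073 SE, limma adjusted p = 5.42e-12). Both were below the 0 h libraries, at 228, 244 and 225 CPM. Id3, a direct BMP target, was lower, at 10.5, 11.5 and 10.4 CPM with Trim24 degraded against 24.98, 27.5 and 30.1 CPM with Trim24 expressed (log2 fold change −1.32 ± 0.095 SE, limma adjusted p = 2.04e-10), while its relative Id4 was higher by 0.83. Id1 and Id2, with −0.49 and −0.01, did not pass. Bambi and Smad6 lay close to the fold required. Without Trim24-degraded replicate 2, or without Trim24-expressing replicate 1, 6 members were higher. Under all alternative settings with the same kind of threshold the number was 5 to 9. The median of the list was 0.10.

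Of 31 Wnt ligands, receptors and targets, 4 were higher and 0 lower. They were the receptors Fzd2, Fzd1 and Fzd7, and Sp5, a transcription factor that Wnt signalling induces. Fzd1 was at 28.5, 33.8 and 25.9 CPM with Trim24 degraded and 13.6, 12.9 and 14.3 CPM with Trim24 expressed (log2 fold change 1.08 ± 0.10 SE, limma adjusted p = 9.34e-09), and Fzd7 at 37.9, 43.2 and 36.5 CPM against 20.5, 20.6 and 22.7 CPM (log2 fold change 0.87). Axin2, another Wnt target, had a log2 fold change of 0.67 and did not pass. Of 22 genes of FGF signalling and ERK feedback, 3 were higher and 2 lower. The receptor Fgfr2 was higher by 1.27, and the ERK phosphatases Dusp4 and Dusp5 by 1.23 and 1.17. Fgf4 (chr7:144847367-144865243), the main FGF ligand made by ES cells, was at 28.3, 28.5 and 27.3 CPM with Trim24 degraded and 88.2, 74.3 and 85.2 CPM with Trim24 expressed (log2 fold change −1.54 ± 0.076 SE, limma adjusted p = 2.05e-13). The other was Fgfbp1, which binds FGF ligands.

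Pluripotency genes were read in separate lists by state. Of 16 genes of formative and primed pluripotency, the states of the epiblast after implantation, 5 were higher and 0 lower, with a median of 0.38. Foxd3 (chr4:99656299-99658622) was at 5.65, 6.7 and 4.72 CPM with Trim24 degraded and 1.11, 1.79 and 2.07 CPM with Trim24 expressed (log2 fold change 1.61 ± 0.18 SE, limma adjusted p = 5.67e-07), both far below the 43.6 ± 8.02 CPM at 0 h (SD, n = 3). Sox3, a factor of the neural plate and epiblast, was at 9.76, 12.4 and 7.18 CPM against 3.33, 3.15 and 4.24 CPM (log2 fold change 1.34 ± 0.17 SE, limma adjusted p = 1.19e-05). Zic2, Zic5 and Sox11 were higher by 1.15, 1.07 and 0.99. Pou3f1 had 1.15 and did not pass the adjusted p, while Otx2 had −0.08 and Dnmt3b −0.04. Of 24 naive pluripotency genes 0 were higher and 1, Fgf4, lower, and their median was 0.08. Among the ES cell markers Lin28a had the largest value, at 21.6, 25.3 and 20.8 CPM with Trim24 degraded and 15.9, 13.4 and 13.5 CPM with Trim24 expressed. Its log2 fold change of 0.65 did not reach the threshold, and the 0 h libraries held 588 ± 14.3 CPM (SD, n = 3). Pou5f1, Nanog and Sox2 had log2 fold changes of 0.13, 0.08 and 0.17.

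Some inhibitors of the cell cycle were higher as well, with 5 of 21 G1 inhibitors and cyclins higher and 0 lower. With any fold allowed and the adjusted p required to be below 0.05, 12 were higher and 5 lower. Summed over the list, the level was lower with Trim24 degraded (2870 to 2940 CPM) than with Trim24 expressed (3120 to 3380 CPM). Rgcc (chr14:79288756-79301645), a regulator of cell cycle kinases, was at 22.2, 28.5 and 19.3 CPM in Trim24-degraded libraries and 2.46, 2.63 and 2.6 CPM in Trim24-expressing ones (log2 fold change 3.003 ± 0.13 SE, limma adjusted p = 1.30e-14). Gas1 (chr13:60174405-60177365), a growth arrest gene that is also a Hedgehog co-receptor, was at 52.4, 60.9 and 45.4 CPM against 8.49, 7.52 and 9.86 CPM (log2 fold change 2.57 ± 0.11 SE, limma adjusted p = 9.15e-13). The groups of both genes stood apart by several times their spread. Cdkn1b, the kinase inhibitor p27, was at 16.03, 16.1 and 17.8 CPM with Trim24 degraded and 7.38, 6.68 and 7.63 CPM with Trim24 expressed (log2 fold change 1.16), and Cdkn2a, the locus of p16 and p19Arf, had 0.87. Ccng2, an unconventional cyclin linked to arrest, was higher by 0.82. Of 34 DNA replication and 31 mitosis genes 0 passed in either direction, with medians of −0.10 and −0.16, and the checkpoint kinase gene Bub1b was at 185 ± 8.14 CPM against 266 ± 8.06 CPM (SD, n = 3 each, log2 fold change −0.52).

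The largest decreases included secreted factors and transcription factors of the placenta. Tnfaip6 (chr2:52038009-52056686), a hyaluronan-binding protein made in inflammation, was at 3.72, 3.6 and 4.82 CPM in Trim24-degraded libraries and 18.5, 18.9 and 19.03 CPM in Trim24-expressing ones (log2 fold change −2.13 ± 0.12 SE, limma adjusted p = 1.83e-12). At 0 h it was at 1.94, 1.47 and 1.46 CPM, closer to the Trim24-degraded than to the Trim24-expressing level. Hand1 (chr11:57828705-57832818), a bHLH factor of trophoblast giant cells and heart, was at 3.04, 3.37 and 2.12 CPM against 11.4, 14.5 and 11.6 CPM (log2 fold change −2.02 ± 0.15 SE, limma adjusted p = 6.67e-10). Gcm1 (chr9:78051924-78065624), which directs the labyrinth trophoblast, was at 7.39, 8.77 and 8.24 CPM with Trim24 degraded and 26.7, 23.9 and 25.9 CPM with Trim24 expressed (log2 fold change −1.61 ± 0.10 SE, limma adjusted p = 1.14e-11). Hand1 and Gcm1 were the only members lower among 16 trophoblast genes tested, and 1, Eomes, was higher by 0.93. The median of that list was 0.02. Ccl3 (chr11:83647844-83649355), a macrophage chemokine, was at 1.3, 1.71 and 2.02 CPM against 7.09, 6.31 and 8.69 CPM (log2 fold change −1.93 ± 0.16 SE, limma adjusted p = 2.45e-09). Irgm1 (chr11:48861968-48871683), an interferon-inducible GTPase, was at 11.9, 10.7 and 10.4 CPM with Trim24 degraded and 38.7, 36.5 and 32.3 CPM with Trim24 expressed (log2 fold change −1.67 ± 0.093 SE, limma adjusted p = 2.03e-12). The groups of all 5 genes were separate. Nectin4, an epithelial adhesion molecule, was at 21.4, 19.3 and 19.8 CPM against 60.5, 55.6 and 55.3 CPM (log2 fold change −1.49). Among the 15 largest decreases were also the zinc finger gene Zfp819, the microglial receptor Trem2, the beta-defensin Defb25, erythropoietin (Epo), the olfactory receptor Olfr787 and the apolipoprotein L genes Apol7e and Apol7b. Their log2 fold changes lay between −1.59 and −1.38, and apart from Apol7b their Trim24-degraded means were under 2 CPM. Apol7e and Apol7b are close copies whose reads may be shared.

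Myc, the growth-promoting transcription factor, was at 4.54, 3.93 and 3.42 CPM with Trim24 degraded and 11.3, 9.2 and 13.04 CPM with Trim24 expressed (log2 fold change −1.41 ± 0.14 SE, limma adjusted p = 2.91e-08), below the 72.9 ± 4.02 CPM of the 0 h libraries in both (SD, n = 3). Of 26 immediate early genes 1 was higher and 3 lower. The others lower were Zfp36, which destabilizes cytokine mRNAs, at 29.1, 28.6 and 28.7 CPM against 67.2, 64.1 and 66.9 CPM (log2 fold change −1.19 ± 0.07 SE, limma adjusted p = 6.34e-12), and the stress factor Atf3, at 32.1, 34.5 and 31.4 CPM with Trim24 degraded and 63.5, 57.6 and 62.2 CPM with Trim24 expressed (log2 fold change −0.90). Egr2, a zinc finger factor of the hindbrain and nerve, was higher, at 2.66, 2.91 and 2.8 CPM against 1.21, 1.1 and 0.901 CPM (log2 fold change 1.14). Fos and its relatives on the list did not pass.

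Classical p53 targets showed small differences. Trp53 itself was at 75.8, 75.7 and 71.9 CPM in Trim24-degraded and 95.5, 74.4 and 102 CPM in Trim24-expressing libraries, and the groups overlapped (log2 fold change −0.27 ± 0.10 SE, limma adjusted p = 0.044). Cdkn1a, which encodes the kinase inhibitor p21, was at 76.6, 79.2 and 76.9 CPM against 69.7, 69.6 and 80.3 CPM (log2 fold change 0.09 ± 0.07 SE, limma adjusted p = 0.37), and these groups overlapped too. Mdm2 (chr10:117688875-117710758) was at 743, 725 and 722 CPM with Trim24 degraded and 1194, 1118 and 1189.8 CPM with Trim24 expressed. The groups were far apart for their spread (limma adjusted p = 8.03e-09), but the log2 fold change of −0.68 stayed under the fold required. Of 11 genes on a list of p53 feedback regulators 0 passed both thresholds, 10 lay below 0 and the median was −0.30. Not all of them inhibit p53, and Trp53inp1, Zmat3 and Aen are also on the list of death targets. Mdm4, an Mdm2 relative that inhibits p53, had −0.50, and the phosphatase Ppm1d −0.44. Of 18 targets of arrest and repair 0 were higher and 1 lower. This was Sfn, the 14-3-3 sigma protein that holds cells in G2, at 44.7, 53.8 and 47.4 CPM with Trim24 degraded and 107, 106 and 102 CPM with Trim24 expressed (log2 fold change −1.11 ± 0.073 SE, limma adjusted p = 3.94e-11). Of 20 death targets 0 passed both thresholds, and the membrane proteins Perp and Fas had log2 fold changes of −0.61 and −0.55. The summed level of the feedback list was 4120 to 4270 CPM with Trim24 degraded and 5540 to 5610 CPM with Trim24 expressed. With the adjusted p required to be below 0.05 and any fold allowed, 6 of the 11 feedback genes and 9 each of the arrest and death targets were lower, against 3012 of all 16774 genes.

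The motif bound by p53 was looked for in the promoters of these genes, a description of sequence that used no measured value beyond the calls. RefSeq promoters (GRCm38.p6, 250 bases before to 50 after the start) were found for 13224 of the genes tested. The p53 motif is a pair of decamers whose consensus has the same form on both strands. A pair with a spacer of at most 13 bases and at most 1 mismatch was in 1.02% of these promoters, in 2 of 324 of the higher genes (0.617%) and in 3 of 187 of the lower genes (1.6%). An exact single decamer was in 8.66% of all promoters, 22 of 324 (6.79%) and 22 of 187 (11.8%). The search for single decamers was added after the pairs had been counted. The sequences shown are Tnfaip6 and Irgm1, which are among the largest decreases and hold an exact decamer, and Cdkn1a for comparison, 5′ to 3′ on the strand of the gene with the decamers in capitals. A match describes these letters only and shows no binding. A window without a match does not show that p53 is absent from the gene, since sites outside the window were not searched.
Tnfaip6 (chr2:52037863-52038162, plus strand): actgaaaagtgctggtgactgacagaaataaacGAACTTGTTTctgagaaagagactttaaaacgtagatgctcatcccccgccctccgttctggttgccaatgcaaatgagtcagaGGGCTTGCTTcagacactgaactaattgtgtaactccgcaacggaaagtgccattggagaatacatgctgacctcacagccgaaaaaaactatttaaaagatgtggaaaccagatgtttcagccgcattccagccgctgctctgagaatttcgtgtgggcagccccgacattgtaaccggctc
Irgm1 (chr11:48871371-48871670, minus strand): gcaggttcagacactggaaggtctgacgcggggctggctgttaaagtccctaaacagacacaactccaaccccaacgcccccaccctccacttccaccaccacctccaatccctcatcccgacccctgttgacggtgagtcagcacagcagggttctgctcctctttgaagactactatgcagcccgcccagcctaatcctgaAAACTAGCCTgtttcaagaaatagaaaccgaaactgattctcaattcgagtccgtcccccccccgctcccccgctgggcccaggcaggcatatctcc
Cdkn1a (chr17:29090729-29091028, plus strand): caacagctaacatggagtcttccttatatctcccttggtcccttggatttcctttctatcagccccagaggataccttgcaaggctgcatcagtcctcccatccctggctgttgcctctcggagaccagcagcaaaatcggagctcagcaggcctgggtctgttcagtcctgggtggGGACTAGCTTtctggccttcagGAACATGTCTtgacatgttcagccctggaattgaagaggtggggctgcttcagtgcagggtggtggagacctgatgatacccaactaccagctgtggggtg
Tnfaip6 holds 2 decamers, the first 217 bases before the start, Irgm1 holds 1, 47 bases before it, and Cdkn1a holds 2, the first 73 bases before it. Those of Cdkn1a form a pair with a spacer of 12 bases and 0 mismatches. The 10 bases that directly follow its second decamer fit the consensus with 1 mismatch. They could also pair with it and are not in capitals, which mark exact decamers only. Cdkn1a has 2 promoter windows, and its distance is from the start of the one shown. Among the 15 largest increases Gas1 holds 1 decamer, beginning 3 bases past the start. The Ptgs2 window holds none, although the paper shows p53 and Trim24 binding at that gene, named Cox2 there. Mdm2, Trp53 and Trim24, which were not called at 12 h, hold 1 exact decamer each.

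Genes of the 2-cell-like state, a rare ES cell state that resembles the 2-cell embryo, had the lowest median of the 46 lists, at −0.57. This rank, like that of primitive endoderm, comes from lists chosen with earlier results known. Of 20 genes tested in the 2-cell-like list 1 was higher and 1 lower at both thresholds. With any fold allowed and the adjusted p required to be below 0.05, 15 were lower. Duxf3, the mouse Dux gene that starts this program, was higher, at 204, 241 and 200.4 CPM with Trim24 degraded and 90.4, 94.4 and 93.3 CPM with Trim24 expressed (log2 fold change 1.21 ± 0.07 SE, limma adjusted p = 4.09e-12). At 0 h it was at 0.498, 0.491 and 0.642 CPM. Zfp352, one of its targets, was lower, at 6.23, 8.5 and 8.29 CPM against 18.9, 18.1 and 17.1 CPM (log2 fold change −1.21 ± 0.11 SE, limma adjusted p = 1.99e-08). The Zscan4 genes, also Dux targets, had log2 fold changes from −0.70 (Zscan4b) to −0.56 (Zscan4d). Dux, Zscan4, Tcstv and Usp17l genes lie in arrays of near-identical copies, and reads placed at random among them make the members depend on each other. Mitochondrially encoded genes had a median of −0.40, with 12 of 13 below 0 and 0 past both thresholds. Their summed level was 24999 to 28229 CPM with Trim24 degraded and 27048 to 35565 CPM with Trim24 expressed, so the groups overlapped. Their part in the other results was not tested.

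Some neighbouring genes were called together. Of 444 higher genes with a place in the annotation 68 (15.3%) had another higher gene within 100 kb, and 7.09% of other genes tested had a higher gene that close. For the lower genes these shares were 12.6% (29 of 230) and 5.28%. On chromosome 7 Mmp21 (log2 fold change 1.43), Dhx32 (2.17), Fank1 (3.51) and Adam12 (1.37) lie in this order, with 40881 bases between Mmp21 and Dhx32 that hold other genes. Dhx32 and Fank1 overlap on opposite strands, and with counting that ignores the strand their reads cannot be told apart where they do. Foxc2 and Foxl1, 9045 bases apart on chromosome 8, were higher by 2.75 and 2.36, and Cachd1 and Raver2 on chromosome 4 by 1.89 and 2.18. Col4a1 and Col4a2 share a bidirectional promoter. Among lower genes the keratins Krt13 and Krt15, 10192 bases apart, had −1.31 and −1.01.

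A minority of the genes changed at 12 h had been called at an earlier time. At 2 h 51 genes were higher on Trim24 loss (0.325% of genes tested), at 4 h 162 were higher (1%) and 24 lower (0.149%), and at 8 h 198 were higher (1.14%) and 78 lower (0.448%). These comparisons share no library with that at 12 h. Of the 453 genes higher at 12 h, 36, 90 and 132 were also higher at 2, 4 and 8 h, which is 70.6%, 55.6% and 66.7% of the genes higher at those times. A set of 33 was higher at all 4 times, among them Ptgs2, Pnliprp2, Rgcc, Adra2a, Reg1, Olfr1188, Foxc2, Foxl1, C1ra, C1rb, Dll1, Cd22 and Adamts2. At none of the earlier times was a call in the same direction made for 313 of the 453 (69.1%) and for 210 of the 237 lower genes (88.6%). At 4 h 2 of the 453 were called lower and 1 of the 237 was called higher. Of the lower genes 26 were also lower at 8 h (33.3% of those lower then), 3 at 4 h and 1 at 2 h. The median log2 fold change of the 453 genes was 0.11, 0.16 and 0.38 at 2, 4 and 8 h, and that of the 237 genes −0.04, −0.08 and −0.39. The same thresholds were used at each time, but a gene had to have reads at that time to be tested.

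Separate experiments gave further values for the same genes. In a separate experiment on the degron line at 4 h of activation, run beside a RING-domain mutant (4 libraries each), 165 genes were higher on Trim24 loss (1.01% of genes tested) and 22 lower (0.135%). Of the 453 genes higher at 12 h 93 were higher there, 56.4% of its higher genes, and of the 237 lower genes 4 were lower there. In the comparison without doxorubicin, dTAG13 was given for 4 h. Both the drug and the length of Trim24 loss therefore differ from the 12 h comparison, and their parts cannot be told apart. Without doxorubicin Trim24 loss changed 12 genes (0.0781%), of which 7 were among the 453 and higher there too. Of the 237 lower genes 1 was higher there. The treatment label of the Trim24-expressing libraries in the uninduced comparison names activated p53 while their titles say untreated. Ptgs2 had log2 fold changes of 3.46 in the separate 4 h experiment and 0.24 in uninduced cells, and Tnfaip6 had −0.83 and −0.64. Col4a1 had −0.05 and −0.04.

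**Figure D4:**
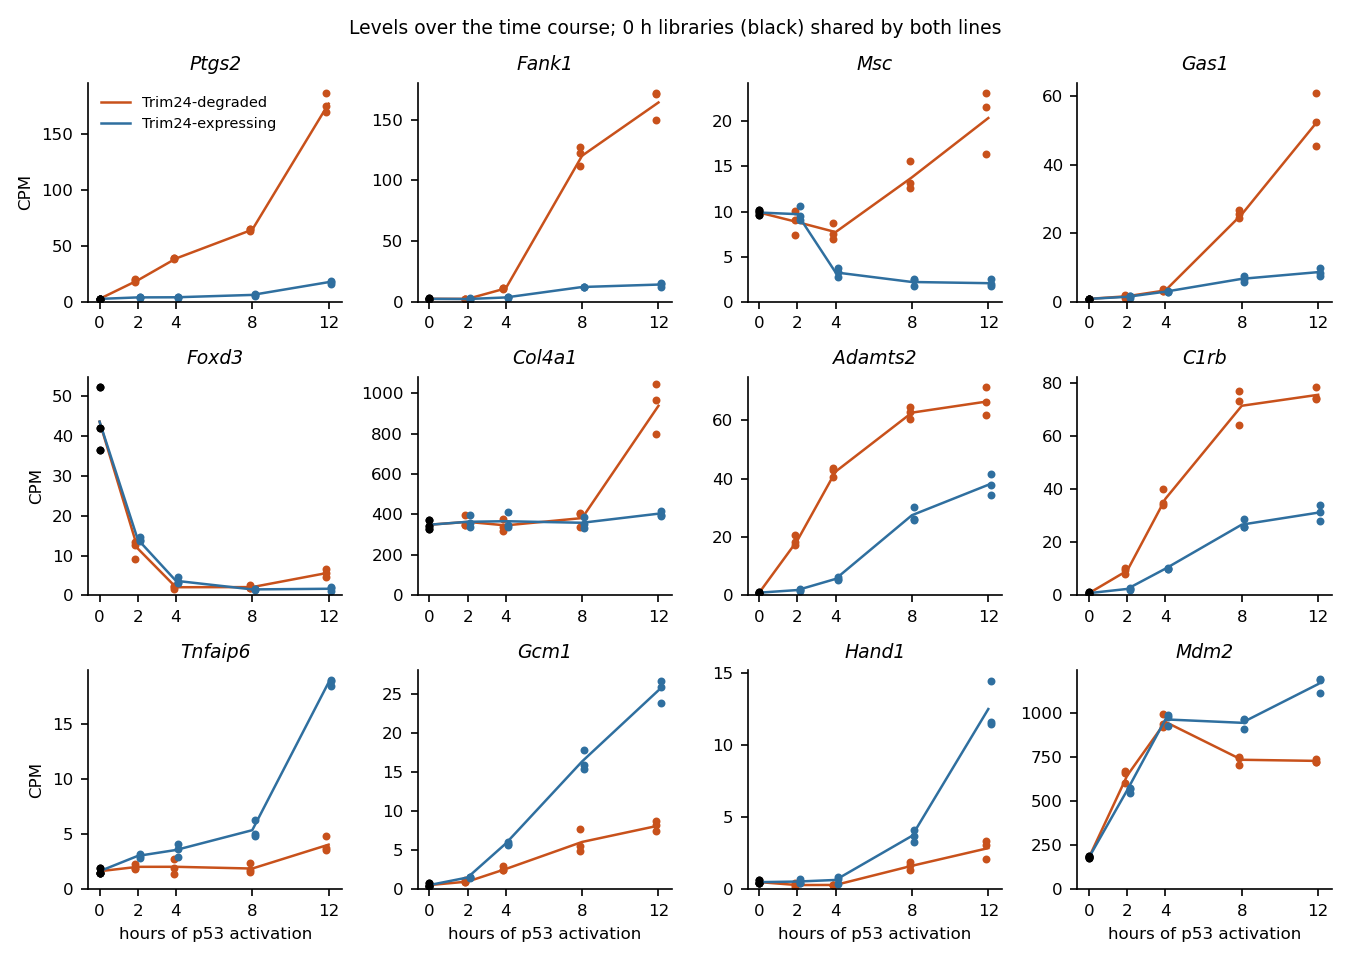
CPM of 12 genes (y axes, each starting at 0) against hours of p53 activation (x axes) in Trim24-degraded (orange) and Trim24-expressing (blue) cells, with a point for each of 3 libraries and lines through the means. Both lines start from the same 0 h libraries (black). Ptgs2, Adamts2 and C1rb are apart from 2 h on, Fank1 and Msc from 4 h, Gas1 from 8 h, and Col4a1 and Foxd3 have a call at 12 h but not earlier.

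The change of the Trim24 effect with time was tested in a model of the 24 activated libraries. Against 4 h, the effect at 12 h was higher for 397 genes (2.19% of 18107 tested) and lower for 208 (1.15%). Against 2 h these counts were 284 (1.57%) and 178 (0.983%), and against 8 h 102 (0.563%) and 24 (0.133%). These counts include genes with too few reads at the earlier time to be tested there, for which a difference restates the effect at 12 h. Of the 640 genes changed at 12 h that were also tested at 4 h, 304 had an effect that differed between the 2 times. In 198 of them the gene was higher at 12 h with a higher effect than at 4 h, and in 102 it was lower with a lower effect. The 640 genes were chosen by their change at 12 h, and the difference uses the same 12 h libraries. These directions are therefore largely set by that choice. The count against 8 h depended on single libraries, lying between 46 genes without Trim24-degraded replicate 2 at 12 h and 209 without replicate 3. Leaving out Trim24-degraded replicate 1 at 12 h gave 77, and Trim24-expressing replicate 2 at 12 h gave 78. The count was 59 without Trim24-degraded replicate 1 at 8 h, which had the fewest reads of the time course.

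Gas1 had the largest difference between 12 h and 4 h (2.42 ± 0.20 SE, limma adjusted p = 1.75e-11). At 4 h it was at 2.99, 3.64 and 3.21 CPM with Trim24 degraded and 2.9, 2.99 and 2.85 CPM with Trim24 expressed, and at 8 h at 26.6, 24.4 and 25.5 CPM against 7.48, 5.85 and 6.66 CPM. Foxd3 followed (2.35 ± 0.24 SE, limma adjusted p = 8.43e-09), with 2.36, 1.58 and 2.17 CPM against 4.49, 3.33 and 3.14 CPM at 4 h, when its level in Trim24-degraded cells was the lower one. Hmcn1 had a difference of 2.27, Insm1, a zinc finger factor of neuroendocrine cells, one of 2.18, and Ggn, a gene of the germ line, one of 2.03. Adamts2, a procollagen protease, was at 43.04, 40.7 and 43.5 CPM with Trim24 degraded and 5.55, 5.17 and 6.16 CPM with Trim24 expressed at 4 h, and at 66.2, 71.4 and 61.9 CPM against 34.4, 41.5 and 37.7 CPM at 12 h (difference −2.03 ± 0.14 SE, limma adjusted p = 2.33e-13). It was still higher on Trim24 loss at 12 h. Its level was higher at 12 h than at 4 h in both conditions, and by more in the Trim24-expressing cells. For Kcnj15, a potassium channel, and Slc5a8, a monocarboxylate transporter, the log2 fold changes at 4 h were 0.82 and 0.82, and those at 12 h −0.98 and −0.92. Kcnj15 passed both thresholds at 4 h and Slc5a8 did not.

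Against 2 h, Fank1 had the largest difference (3.41 ± 0.17 SE, limma adjusted p = 3.67e-18). At 2 h it was at 2.22, 2.38 and 2.23 CPM with Trim24 degraded and 1.61, 2.02 and 2.81 CPM with Trim24 expressed, which do not differ beyond their spread. Msc followed with 3.24, then Gas1 with 2.45, Gjb2 with 2.42 and Cfap206 with 2.40. Lower effects were seen for Adamts2 (−2.35), the collagen receptor Itga2 (−1.92) and the urothelial protein Upk1b (−1.71). Against 8 h the forkhead gene Foxq1 (1.59 ± 0.29 SE, limma adjusted p = 6.44e-04), at 1.22, 0.933 and 1.36 CPM with Trim24 degraded and 1.39, 1.13 and 1.16 CPM with Trim24 expressed at 8 h, was at 7.2, 8.54 and 6.46 CPM against 1.74, 2.68 and 2.65 CPM at 12 h. Dmrta2, a factor of the neural tube, had a difference of 1.62.

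**Figure D5:**
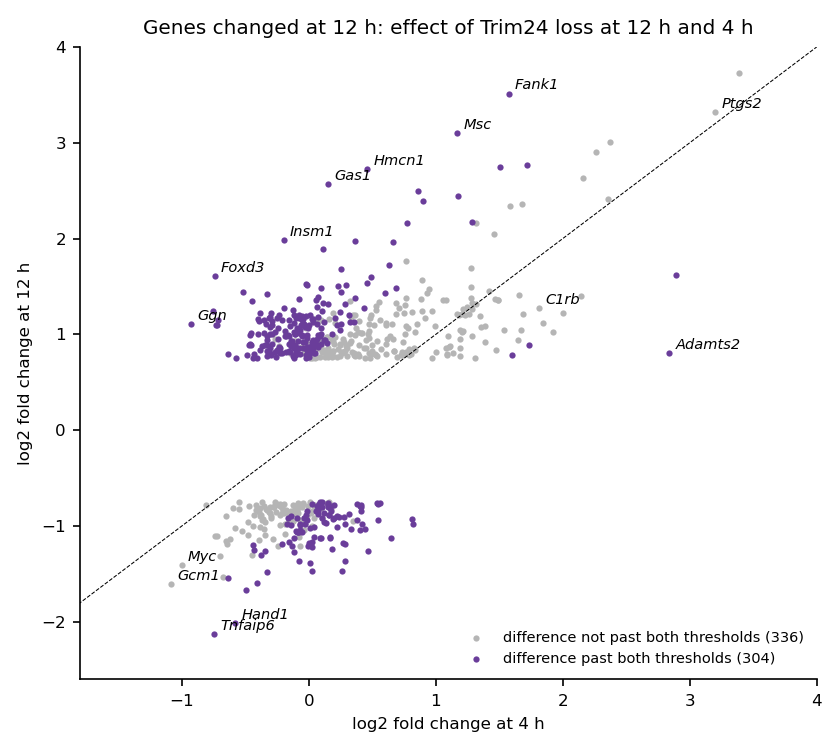
Log2 fold change on Trim24 loss at 12 h (y axis) against that at 4 h (x axis) for the 640 genes changed at 12 h and tested at 4 h. The band around 0 on the y axis is empty because the genes were chosen by their change at 12 h. Purple points are the 304 genes whose difference between 12 h and 4 h passed both thresholds, and the dashed line marks equal effects. Ptgs2 lies close to that line and Gas1 and Fank1 lie above it.

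The genes were also set against their response to p53 activation alone, read at 8 h in Trim24-expressing cells over 0 h, since those libraries are not part of the comparison at 12 h. Activation for 8 h made 4452 genes higher (27% of genes tested) and 3016 lower (18.3%). Of the 237 genes lower on Trim24 loss at 12 h, 153 (64.6%) were higher on activation and 11 (4.64%) lower, with a median log2 fold change of 1.30. A gene needs reads at 12 h with Trim24 expressed to be called lower, so this share is not independent of the level that activation reaches. Of the 453 genes higher on Trim24 loss, 169 (37.3%) were higher on activation and 83 (18.3%) lower, with a median of 0.42. Fas and Mdm2, at 5.44 and 2.39 on activation, are examples of strongly induced genes whose log2 fold change on Trim24 loss did not pass the fold required. Gcm1 was at 4.28 on activation and −1.61 on Trim24 loss, Upk1b at 3.97 and −1.21, and Usp18 at 3.97 and −0.92. In the other direction Foxd3 was at −4.56 on activation and 1.61 on Trim24 loss, Bmp4 at −4.51 and 1.00, Zic2 at −3.63 and 1.15, and Samd9l at −3.64 and 2.39. Other genes went further in the direction of activation without Trim24, such as Rgcc (2.70 and 3.003), Gas1 (2.58 and 2.57) and Duxf3 (5.83 and 1.21), or, among genes lower on activation, Myc (−2.31 and −1.41), Fgf4 (−1.36 and −1.54) and Id3 (−2.78 and −1.32).

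Further lists gave few calls. Dll1, a Notch ligand, was at 33.4, 39.2 and 36.2 CPM with Trim24 degraded against 12.1, 14.04 and 15.5 CPM with Trim24 expressed (log2 fold change 1.37 ± 0.10 SE, limma adjusted p = 1.25e-10). The synaptic gene Snap25 was under 1 CPM in all 6 libraries, and its call was lost under several alternative settings. Of 23 genes of the ATF4 and unfolded protein response 2 were higher, the glutathione-degrading Chac1 (by 0.94) and the lipoprotein receptor Vldlr (by 0.81). Of 16 genes of primitive streak and mesoderm 2 were higher, Sox17 and Eomes, and 1 lower, Hand1. Of the blood markers Cd22 was higher, at 2.51, 2.49 and 2.36 CPM against 0.579, 0.946 and 0.636 CPM, and of the endothelial markers Cdh5 and Flt1 were, by 0.81 and 0.78. The Cdh5 call was lost without Trim24-degraded replicate 1 and without Trim24-expressing replicate 2, that of Flt1 without Trim24-degraded replicate 2 and without Trim24-expressing replicate 1, and both with log2(CPM + 1). The junction gene Cldn4 was lower, at 79.1, 92.1 and 88.2 CPM with Trim24 degraded and 155, 159 and 148 CPM with Trim24 expressed (log2 fold change −0.83). Among relatives of Trim24, Trim28 had 0.23 and Trim66 −0.46, and 0 of 4 TIF1 genes passed. Of 24 ribosome biogenesis genes, 32 cytosolic ribosomal protein genes, 23 cholesterol synthesis genes, 14 heat shock genes and 29 recombination, Fanconi and checkpoint genes 0 passed in either direction, with medians of −0.13, 0.08, 0.12, 0.12 and −0.16.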

How the data were processed

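Total RNA of ES cells was sequenced from stranded libraries with ribosomal RNA removed. The authors made base calls with bcl2fastq 2.17 or 2.20, aligned reads with STAR to mm10, placed reads that fit several positions at random, counted them without regard to strand over protein-coding genes with featureCounts, and scaled libraries with edgeR. The deposited values are log2 CPM with a prior count of 8, so the lowest value is −1.48. Taking the prior count away gave whole reads for 100% of values within 0.01, and CPM in the text has no prior count. Depth was 16157342 to 18234899 reads over genes per library.

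The main test was limma 3.58.1 (R 4.3.3, trend and robust) on the 6 libraries, with Benjamini-Hochberg adjustment over genes with at least 3 libraries 0.5 above the floor. Calls required adjusted p below 0.01 and a log2 fold change past 0.75 in size. Differences between times were interaction terms in a fit of 24 libraries. P-values measure the spread between replicate libraries of 1 line. Tested on simulated data of the 12 h comparison (16645 genes), the test called 90 of 100 genes changed by 1 on the log2 scale, 100 of 100 changed by 2 and 0 of 16445 unchanged genes. The simulated spread was small and the same for every gene, and changes were placed only in genes above 1 CPM. These rates therefore do not carry over to genes with a wider spread or fewer reads. Tables used Python 3.11.15 and pandas 2.3.3.

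Genes were named by rule: Trim24, Trp53, Mdm2, Cdkn1a, Ptgs2, Rgcc and Tnfaip3; the 15 largest increases and decreases among called genes whose groups do not overlap and that reach 1 CPM in a group; up to 4 called members of each of 46 lists, or the 2 with the largest fold where none was called; and the 5 largest differences between times in each direction. Some genes that the rule names are not reported here. Other list members and neighbours were named after their values were seen. Members and lists were chosen with earlier results of these data known. Gene positions are from GENCODE annotation of GRCm38, and promoters from RefSeq (GRCm38.p6). Alternatives were another test, scaling, filter, pseudocount and threshold, a replicate block, all 27 libraries of the time course in the fit, and each library left out; scaling to library totals and leaving out 1 library at 8 h were chosen after seeing the data.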

Additional observations from a re-analysis of the deposited data

Results flagged for a closer look

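The effect of Trim24 loss at 12 h was set against that at the earlier times by an interaction test in limma. The interaction passed both thresholds against 4 h for 605 genes, against 8 h for 126 and against 2 h for 462, genes with too few reads at the earlier time included.

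Among the largest differences from 4 h were Gas1 (2.42 on the log2 scale), Foxd3 (2.35), Hmcn1 (2.27), Insm1 (2.18) and Ggn (2.03), whose effects were higher at 12 h. Adamts2 (−2.03), Ccl3 (−1.96), Kcnj15 (−1.79) and Slc5a8 (−1.74) had lower values at 12 h. Ccl3 had too few reads to be tested at 4 h, so its difference restates its effect at 12 h.

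From 8 h to 12 h the effect was higher for C2cd4b (difference 1.82), Mrps34 (1.69), Dmrta2 (1.62), Foxq1 (1.59) and Sp6 (1.56). It was lower for Ccl3 (−1.52), Defb25 (−1.485), Dnah7c (−1.45), 1810062G17Rik (−1.44) and Tmem269 (−1.34). Defb25 and 1810062G17Rik had too few reads to be tested at 8 h, so their differences show no change from an effect measured then. Mrps34 and Sp6 had overlapping groups at 12 h.

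Against 2 h the differences were Fank1 (3.41), Msc (3.24), Gas1 (2.45), Gjb2 (2.42) and Cfap206 (2.40) in the higher direction. In the lower direction they were Adamts2 (−2.35), Ccl3 (−2.20), Itga2 (−1.92), Olfr787 (−1.81) and Upk1b (−1.71). Ccl3 and Olfr787 had too few reads to be tested at 2 h, and the same holds for them.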

How the results depend on the processing

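Without a call in the main test, a named gene was checked for its sign only where an alternative called it, and none reversed. No named gene or named difference with a call in the main test changed sign under any alternative that was run. Medians close to 0 did: that of all genes was 0.04 with library totals, that of the inflammation list −0.03 without Trim24-degraded replicate 2, and that of the trophoblast list −0.03 with quantile normalization. With log2(CPM + 1) 432 genes changed at 12 h, 282 higher and 150 lower. Allowing any fold with an adjusted p below 0.05 gave 5265 genes, of which 2253 were higher and 3012 lower, and 3492, 907 and 2266 differences of the 12 h effect from that at 4, 8 and 2 h. The counts against 8 h were 58 without trend and robust fitting and 59 without Trim24-degraded replicate 1 at 8 h. Library totals gave 553 higher and 175 lower genes at 12 h. The cause of these changes was not tested, apart from those that follow from the threshold. Leaving out each library in turn gave 618 to 773 changed genes, 376 to 522 higher and 226 to 251 lower. The differences then numbered 451 to 700 against 4 h, 46 to 209 against 8 h and 386 to 458 against 2 h.

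The replicate block gave 722 changed genes, all 690 included, and 573, 99 and 448 differences from 4, 8 and 2 h. The numbers did not pair the libraries, with correlations of deviations of −0.0886, −0.00159 and −0.0632, and 0 of 3 correlated best with their own number. Of 2519 values for the 140 named genes 81 lost the call and 62 gained it, of 490 values for named differences 50 lost it and 0 gained it. Among the named genes Hoxd8 and Snap25 lost it most often. Genes under 1 CPM rest on few reads, which limits what the depth can show.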
